A study of Mus musculus with 2 samples.

Results

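Solute carriers are membrane proteins that move nutrients, ions, vitamins and metabolites across the plasma membrane and the membranes of organelles, and their genes carry the symbol Slc with a family number. They work as exchangers, as cotransporters driven by a sodium or proton gradient, or as facilitated carriers. Activated macrophages are known to change their uptake of glucose, amino acids and metals, and the carriers of the endolysosome take part in the handling of microbial peptides and nucleosides. Their transcripts were described here in bone marrow-derived macrophages from SIRPα knockout mice (SIRPα-KO, genotype given as SIRPα-/-) and from wild-type (WT) mice. Genes were taken from both deposited tables where the symbol was Slc followed by digits, a letter and digits (or Slco for the organic anion transporters). Slc2a1, Slc16a3, Slc7a2, Slc7a11, Slc30a1, Slc30a4, Slc39a14, Slc40a1 and Slc11a1 were left out. Of 16263 genes listed, 269 met this rule, and 146 of them reached 1 FPKM in at least 1 library. FPKM are fragments scaled to transcript length and to library size, a unit inferred from the values.

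The SIRPα-KO sample and the WT sample were both labelled C57BL/6. In both, marrow cells were grown for 5 days with medium conditioned by M-CSF, then exposed for 6 h to interferon-γ at 20 ng/ml with lipopolysaccharide at 100 ng/ml (M1 activation) while a reagent named mCD47.ex was present. RNA came from the mixed cells of 5 mice for either genotype, so each genotype is 1 library and the spread between mice was not measured. The comparison asks how transcript levels differ between macrophages labelled as lacking SIRPα, an inhibitory receptor for CD47, and WT macrophages. The sources used here describe neither the targeted allele nor the age of the mice.

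The libraries held about 10950000 reads (SIRPα-KO) and 11000000 reads (WT), as estimated from the steps between low values. Sirpa (chromosome 2) was at 71.5 FPKM in SIRPα-KO and 154 FPKM in WT, so the library with the SIRPα-KO label still held its transcript, and directions rest on that label. Xist was at 0.91 FPKM in SIRPα-KO and 47.5 FPKM in WT, and Eif2s3y at 21.4 FPKM in SIRPα-KO and listed at 0 in WT. Ddx3y, also on chromosome Y, was at 11.6 FPKM in SIRPα-KO and listed at 0 in WT. Sex-linked transcripts thus had a male pattern in SIRPα-KO and a female pattern in WT. Differences by sex and by genotype therefore cannot be told apart here. All 11 macrophage markers examined were above the limit of 1 FPKM, with sums of 11500 FPKM in SIRPα-KO and 11650 in WT, and 1 of them, Csf1r, was at least 2-fold lower (109.8 FPKM in SIRPα-KO, 248 in WT). Of 12 neutrophil and granulocyte precursor markers 11 were kept, 0 were higher and 5 were lower, with sums of 282 FPKM in SIRPα-KO and 536 in WT. Of 9 dendritic cell markers 5 were kept, 2 were higher (Ccl22 and Ccr7) and 0 lower, with sums of 171 FPKM in SIRPα-KO and 28.8 in WT. Most of the gap between these sums came from Ccl22 alone (139 FPKM in SIRPα-KO, 11.2 in WT). The rest of those kept, Siglech, Xcr1 and Clec9a, had lower values in SIRPα-KO, all short of 2-fold with 1 FPKM added. Erythroid, mast cell, T and NK cell, B cell and stromal markers summed to between 2.47 and 16.05 FPKM in SIRPα-KO. In WT they summed to between 3.52 and 14.99 FPKM, and Klf1 and Cd3g were listed at 0 in both libraries. With 1 FPKM added to each value, 0 of these genes were at least 2-fold apart. B cell markers summed to 2.47 FPKM in SIRPα-KO and 5.91 in WT, and mast cell and basophil markers to 6.48 in SIRPα-KO and 3.58 in WT. The part of other cell types, of the sex of the mice and of depth in the values of the carriers was not tested. In bulk RNA, fewer cells of a type and less RNA per cell cannot be told apart.

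Differences are given as the log2 of (FPKM + 1) in SIRPα-KO minus that in WT, and a gene is called higher or lower where the values with the pseudocount of 1 were 2-fold or more apart. No p-value was computed, since either genotype has a single library. Of the 146 carriers kept, 6 were higher in SIRPα-KO (4.11%), where 3.43% of all 10092 genes kept were higher. Another 8 were lower (5.48%), where 4.3% of all genes kept were lower. In either direction 9.59% of the carriers and 7.73% of all genes kept were past 2-fold. The shares of carriers were thus near those of the whole table. The median log2 difference was 0.06 for the carriers and 0.06 for all genes kept, and the median size of the difference was 0.32 for the carriers and 0.28 for all genes. The quartiles of the carriers were -0.23 and 0.35. In level, 78 carriers had the greater value in SIRPα-KO, 67 in WT, and 1, Slc35b1, was equal at 13.7 FPKM. The remaining 132 carriers were short of 2-fold. The scatter of SIRPα-KO against WT levels shows the carriers along the line of equality, with Slc28a2 farthest from it.

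**Figure D1:**
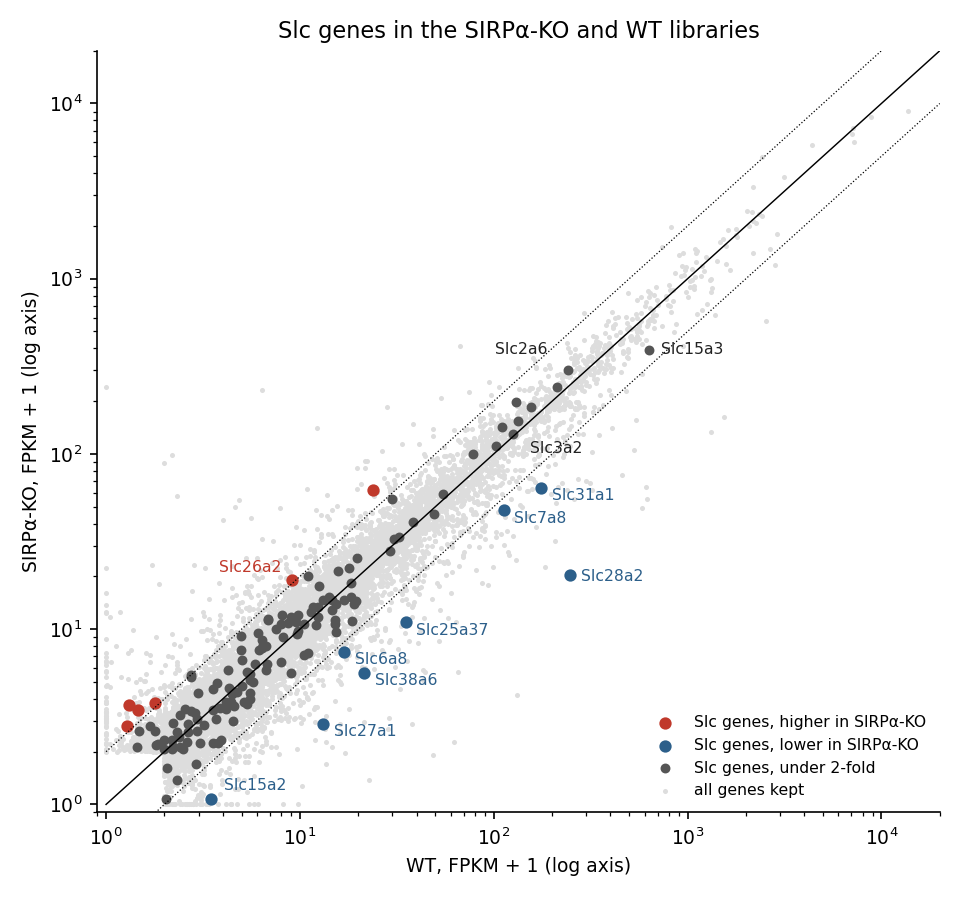
Levels of 146 Slc genes (dark and coloured points) over all 10092 genes kept (grey), with FPKM + 1 in SIRPα-KO on the y axis and in WT on the x axis, both log axes. The solid line marks equal values and the dotted lines 2-fold. Slc28a2 lies farthest below the line (19.4 FPKM in SIRPα-KO, 247 in WT), and names are given for called carriers that reached 5 FPKM, for Slc15a2 and for Slc15a3, Slc2a6 and Slc3a2.

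The carriers near the lower limit show how the limit acts. Just inside it were Slc9b2, at 0.08 FPKM in SIRPα-KO and 1.03 FPKM in WT, and Slc12a8, at 0.61 FPKM in SIRPα-KO and 1.07 FPKM in WT. Just outside were Slc39a4, at 0.52 FPKM in SIRPα-KO and 0.99 FPKM in WT, and Slc15a1, at 0.96 FPKM in SIRPα-KO and 0.72 FPKM in WT. Of the 123 carriers under the limit 10 were listed at 0 in both libraries and 27 in 1 of them. None of these 123 could reach 2-fold with a pseudocount of 1. Each of the 146 kept carriers had a value above 0 in both libraries.

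The summed level of nucleoside carriers was lower in SIRPα-KO, almost wholly through 1 gene. Slc28a2, a sodium-coupled concentrative carrier that prefers purine nucleosides (gene number 269346, chromosome 2), was at 19.4 FPKM in SIRPα-KO and 247 FPKM in WT. It was the carrier with the second highest level in WT and the 24th in SIRPα-KO, and it held 0.609% of the summed FPKM of carriers in SIRPα-KO against 7.07% in WT. The log2 difference was -3.61, the lowest of the 146 carriers with the pseudocount of 1. With a pseudocount of 0.1, Slc15a2 was lower still (-3.84, against -3.67 for Slc28a2). These values stand for about 829 reads in SIRPα-KO and 10643 in WT, and the ratio of FPKM was 0.0782 with a 95% interval of 0.0728 to 0.084 (Clopper-Pearson, from the estimated reads, counting error only). The equilibrative carriers of the same substrates were short of 2-fold. Slc29a3, the carrier of the lysosome membrane, was at 10.2 FPKM in SIRPα-KO and 17.5 FPKM in WT, and Slc29a1, of the plasma membrane, at 2.76 in SIRPα-KO and 4.33 in WT. Slc28a3 and Slc29a2 were under the limit in both libraries. The 3 kept members had a median log2 difference of -0.73, and 1 of 3 was past 2-fold (7.73% of all genes kept).

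Slc28a2 has a close copy, the predicted gene Gm14085, which neighbours it on chromosome 2 and was at 5.46 FPKM in SIRPα-KO and 0.06 FPKM in WT. That is about 224 reads in SIRPα-KO and 2 in WT, a ratio of 91 (95% interval 30.8 to 935, counting error only). Each gene has 1983 coding bases, which aligned at 94.8% identity with 103 differing bases, and 39.6% of the 50-base words of Slc28a2 also occur in Gm14085. Reads of the shared stretches (up to 192 identical bases in a row) could have been counted for either gene. The 120 coding bases with the most differences, 423 to 542 of each coding sequence, are printed to show that the copies can be told apart in part of their length. They are from GENCODE transcripts on GRCm38, plus strand, with the 25 bases that differ in capitals. They span introns at chr2:122447924-122449852 (Slc28a2) and chr2:122494371-122514456 (Gm14085).
Slc28a2: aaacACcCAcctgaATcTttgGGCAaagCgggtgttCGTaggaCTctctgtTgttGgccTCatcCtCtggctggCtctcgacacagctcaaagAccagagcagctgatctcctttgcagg
Gm14085: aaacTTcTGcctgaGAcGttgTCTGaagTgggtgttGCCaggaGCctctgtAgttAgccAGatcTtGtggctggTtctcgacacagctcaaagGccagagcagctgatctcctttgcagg
The sum of both genes was 24.8 FPKM in SIRPα-KO and 247 FPKM in WT, a log2 difference of -3.27. The ratio of the summed values was 0.1, against 0.0782 for Slc28a2 alone, so the pair as a whole was lower in SIRPα-KO too.

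Peptide and histidine carriers held the most abundant carrier transcript of either library. Slc15a3, a proton-coupled carrier of histidine and small peptides in the endolysosome, was at 390 FPKM in SIRPα-KO and 630 FPKM in WT, a log2 difference of -0.69 that was short of 2-fold. It was first in level in both libraries, with 12.3% of the carriers' summed FPKM in SIRPα-KO and 18.01% in WT. Its ratio of 0.619 had a counting interval of 0.604 to 0.634, which does not cover differences between cultures. Slc15a4, its relative with a role in endosomal Toll-like receptor signalling, was at 10 FPKM in SIRPα-KO and 8.55 FPKM in WT. Slc15a2, a peptide carrier of the plasma membrane, was called lower, at 0.08 FPKM in SIRPα-KO and 2.48 FPKM in WT. That is about 2 reads in SIRPα-KO and 69 in WT, a ratio of 0.032 with a counting interval of 0.0035 to 0.109. Of 11 partner genes of these endolysosomal carriers that were measured, among them Irf5, Tlr7, Tlr9, Nod1 and Unc93b1, 0 were higher and 0 lower. With 7.73% of all genes kept past 2-fold, a count of 0 among so few genes is near the share of the whole table. Irf7, the most abundant, was at 1176 FPKM in SIRPα-KO and 1182 FPKM in WT.

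Amino acid carriers went both ways, with 1 of 20 kept members higher and 3 lower (3.43% and 4.3% of all genes kept). Their median was -0.08. Slc3a2, the CD98 heavy chain that brings the light chains of heteromeric amino acid transporters to the cell surface, was nearly equal, at 129 FPKM in SIRPα-KO and 124.5 FPKM in WT (log2 0.05). Of its light chains, Slc7a11, one of the carriers left out by name, was also level, at 24.3 FPKM in SIRPα-KO and 22.6 FPKM in WT. Slc7a8, a light chain for neutral amino acids, was lower at 46.8 FPKM in SIRPα-KO against 112 FPKM in WT, with a log2 difference of -1.24. Slc7a7, which pairs with Slc3a2 to exchange cationic for neutral amino acids, was at 9.67 FPKM in SIRPα-KO and 14.2 FPKM in WT, short of 2-fold. Slc7a5, the light chain that carries leucine and other large neutral amino acids, was at 4.37 FPKM in SIRPα-KO and 1.73 FPKM in WT, and with a log2 difference of 0.98 it was also just short. The heavy chain was thus level while Slc7a8, Slc7a7 and Slc7a5 differed in both directions. Of the light chains named, Slc7a8 alone was past 2-fold with the pseudocount. Without it the ratio of FPKM was 0.418 for Slc7a8 (counting interval 0.397 to 0.44) and 2.53 for Slc7a5 (1.89 to 3.4).

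Among carriers of single amino acids and related compounds, Slc7a1, a carrier of arginine and lysine, was higher, at 2.78 FPKM in SIRPα-KO and 0.79 FPKM in WT (log2 1.08, about 219 reads in SIRPα-KO and 62 in WT). Slc38a6, of the sodium-coupled neutral amino acid family, was lower at 4.66 FPKM in SIRPα-KO and 20.5 FPKM in WT (log2 -1.92, ratio 0.228, counting interval 0.19 to 0.272). Slc6a8, the creatine carrier, was lower at 6.41 FPKM in SIRPα-KO and 15.9 FPKM in WT (log2 -1.19). Slc6a8 is on the X chromosome, where 8 carriers were kept. The others of these 8 were short of 2-fold, between -0.20 and 0.59. Slc6a6, the taurine carrier and the most abundant of the amino acid group, was at 240 FPKM in SIRPα-KO and 210 FPKM in WT, a log2 difference of 0.19. The glutamine carriers Slc1a5 (2.5 FPKM in SIRPα-KO, 1.54 in WT) and Slc38a2 (11.01 in SIRPα-KO, 7.12 in WT) had greater values in SIRPα-KO. The proton-coupled Slc36a1 (1.24 in SIRPα-KO, 2.77 in WT) and Slc36a4 (1.25 in SIRPα-KO, 2.57 in WT) had lower values. All were short of 2-fold with the pseudocount, while the plain ratios of FPKM were 0.448 for Slc36a1 and 0.486 for Slc36a4. Slc38a9, an arginine sensor of the lysosome, was at 1.12 FPKM in SIRPα-KO and 1.21 FPKM in WT. These 5 genes were named after their values were seen.

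Genes of the response to scarce amino acids, which the transcription factor ATF4 drives and which includes carriers such as Slc7a1, Slc7a5 and Slc3a2, were read as a list. Of 19 kept members 4 were higher and 1 lower, with a median of 0.46. Of all genes kept 3.43% were higher and 4.3% lower. Carriers were not taken out of this list, so it is not independent of the carriers above. Asns, which makes asparagine, was at 10.8 FPKM in SIRPα-KO and 3.74 FPKM in WT, and Mthfd2, of mitochondrial folate metabolism, at 27.4 FPKM in SIRPα-KO and 10.8 FPKM in WT. Psat1, of serine synthesis, was at 216 FPKM in SIRPα-KO and 96.2 FPKM in WT, and the lower member Cebpb, a transcription factor, at 41.7 in SIRPα-KO and 126 in WT. Nupr1, the most abundant of the list, was short of 2-fold at 444 FPKM in SIRPα-KO and 510.19 FPKM in WT. Genes of lysosomal amino acid sensing by mTORC1 had 0 of 31 members higher and 0 lower, a median of 0.02, and Rragc as the most abundant, at 111 FPKM in SIRPα-KO and 99.6 FPKM in WT. Genes of nucleoside salvage and breakdown had 1 of 21 higher, the guanine deaminase Gda at 46.8 FPKM in SIRPα-KO and 13.7 FPKM in WT, and 0 lower, with a median of 0.04. Samhd1, which breaks down deoxynucleotides, was the most abundant of them at 1163 FPKM in SIRPα-KO and 986 FPKM in WT.

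**Figure D2:**
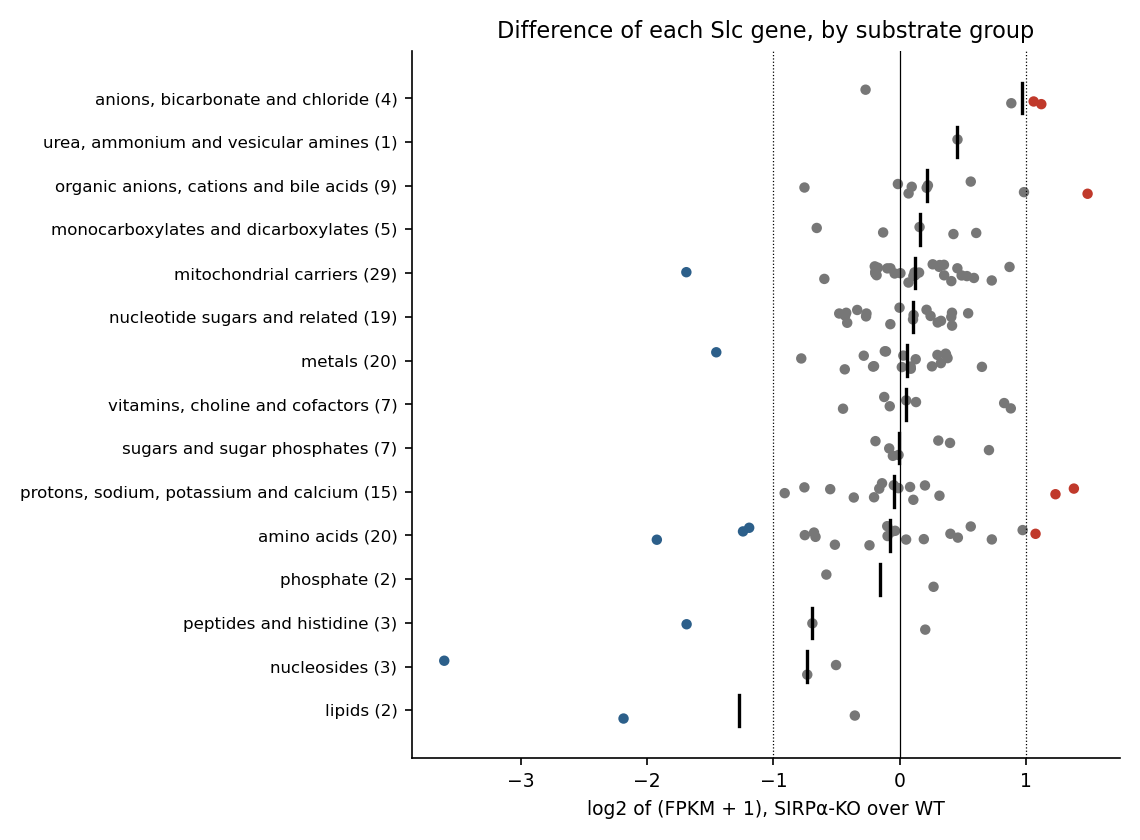
Log2 difference of (FPKM + 1) between SIRPα-KO and WT for each of the 146 carriers (points), by substrate group with the number of genes in brackets, and the group's median as a black bar. Dotted lines mark 2-fold, red points are higher and blue points lower in SIRPα-KO. Most points lie inside the dotted lines, and the nucleoside, lipid and amino acid groups reach farthest to the left, through Slc28a2 (-3.61), Slc27a1 (-2.19) and Slc38a6 (-1.92).

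Metal carriers had a share past 2-fold near that of all genes kept (3.43% higher and 4.3% lower). Of 20 kept members 0 were higher and 1 was lower, with a median of 0.06. The lower one was Slc31a1, the copper importer of the plasma membrane, at 63.2 FPKM in SIRPα-KO and 175 FPKM in WT (log2 -1.45, ratio 0.362, counting interval 0.346 to 0.378). Slc31a2, the related protein of endosomes, was at 184 FPKM in SIRPα-KO and 154 FPKM in WT, so the paralogs lay on opposite sides of equality and only Slc31a1 was past 2-fold. The zinc importer Slc39a1 was at 141 FPKM in SIRPα-KO and 109 FPKM in WT, short of 2-fold. Slc11a2, the carrier of divalent iron and manganese, was at 39.9 FPKM in SIRPα-KO and 37.4 FPKM in WT. The 10 kept zinc importers of the Slc39 family had a median of 0.16 and the 4 kept zinc carriers of the Slc30 family one of 0.08, with 0 genes called in either.

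Mitochondrial carriers of the Slc25 family were the most numerous group, with 29 kept members. Of these 0 were higher and 1 was lower, where 3.43% of all genes kept were higher and 4.3% lower. The lower one was Slc25a37, mitoferrin 1, which brings iron into mitochondria, at 9.93 FPKM in SIRPα-KO and 34.3 FPKM in WT (log2 -1.69, ratio 0.29, counting interval 0.261 to 0.322). Its paralog Slc25a28, mitoferrin 2, was level at 12.4 FPKM in SIRPα-KO and 11.3 FPKM in WT (named after its values were seen). Because Slc25a37 is also abundant in erythroid precursors, the erythroid markers were read beside it, and they summed to 3.63 FPKM in SIRPα-KO and 3.52 FPKM in WT. The group had a median of 0.12 and the greatest summed level of any group in SIRPα-KO, 709.65 FPKM against 604.86 FPKM in WT. Slc25a5, an exchanger of ADP and ATP, was its most abundant member at 196 FPKM in SIRPα-KO and 130 FPKM in WT (log2 0.59). Slc25a3, the phosphate carrier, was at 109 FPKM in SIRPα-KO and 101 FPKM in WT. The citrate carrier Slc25a1 was at 17.4 FPKM in SIRPα-KO and 17.3 FPKM in WT, and the oxoglutarate carrier Slc25a11 at 13.8 FPKM in SIRPα-KO and 15.9 FPKM in WT, both named after their values were seen.

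Fatty acid transport proteins had 2 kept members, of which Slc27a1 was lower. Slc27a1, which takes up long-chain fatty acids and couples them to coenzyme A, was at 1.89 FPKM in SIRPα-KO and 12.2 FPKM in WT, a log2 difference of -2.19 (ratio 0.155, counting interval 0.116 to 0.206). Slc27a4 was at 3.31 FPKM in SIRPα-KO and 4.51 FPKM in WT.

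Of the 6 higher genes, 2 were carriers of protons, sodium, potassium and calcium and 2 were carriers of anions. Metal carriers had 0 of 20 kept members higher and phosphate carriers 0 of 2, where 3.43% of all genes kept were higher. Among the 15 kept carriers of protons, sodium, potassium and calcium 2 were higher and 0 lower, with a median of -0.05. Slc12a2, which takes up sodium, potassium and chloride together, was at 2.44 FPKM in SIRPα-KO and 0.46 FPKM in WT (log2 1.24, about 174 reads in SIRPα-KO and 33 in WT). Its ratio of 5.3 had a counting interval of 3.63 to 7.94. Slc24a6, the sodium-calcium exchanger of mitochondria that is now named Slc8b1, was level at 31.5 FPKM in SIRPα-KO and 29.7 FPKM in WT.

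Among the 4 kept carriers of bicarbonate, sulfate and other anions 2 were higher and 0 lower, with a median of 0.97. Slc26a2, the sulfate carrier, was at 18.1 FPKM in SIRPα-KO and 8.12 FPKM in WT (log2 1.06), and it was just short of 2-fold (0.99) when the libraries were rescaled. Slc4a11, of the bicarbonate carrier family, was at 1.79 FPKM in SIRPα-KO and 0.28 FPKM in WT (log2 1.12, about 63 reads in SIRPα-KO and 10 in WT) and was named after its values were seen. Slc4a7, a cotransporter of sodium and bicarbonate, was at 8.15 FPKM in SIRPα-KO and 3.95 FPKM in WT. It was short of 2-fold with the pseudocount (0.89). Slc4a2, an anion exchanger, was at 14.2 FPKM in SIRPα-KO and 17.3 FPKM in WT, and it shares 12.3% of its words with the overlapping gene Fastk.

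Of 9 kept carriers of organic ions and bile acids 1 was higher and 0 lower (3.43% and 4.3% of all genes kept). Their median was 0.22. Slc22a21, a carnitine carrier of the mouse, was at 2.71 FPKM in SIRPα-KO and 0.32 FPKM in WT (log2 1.49, about 103 reads in SIRPα-KO and 12 in WT). It shares 23.8% of its words with Slc22a5, the main carnitine carrier of the plasma membrane, so the split of reads between these copies is uncertain. Slc22a5 was at 4.45 FPKM in SIRPα-KO and 1.75 FPKM in WT, in the same direction. With the pseudocount its log2 difference of 0.99 was just short of 2-fold. Slco3a1, the most abundant of the group, was at 154 FPKM in SIRPα-KO and 132 FPKM in WT, and Slc17a5, which exports sialic acid from lysosomes, at 4.7 in SIRPα-KO and 4.33 in WT.

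**Figure D3:**
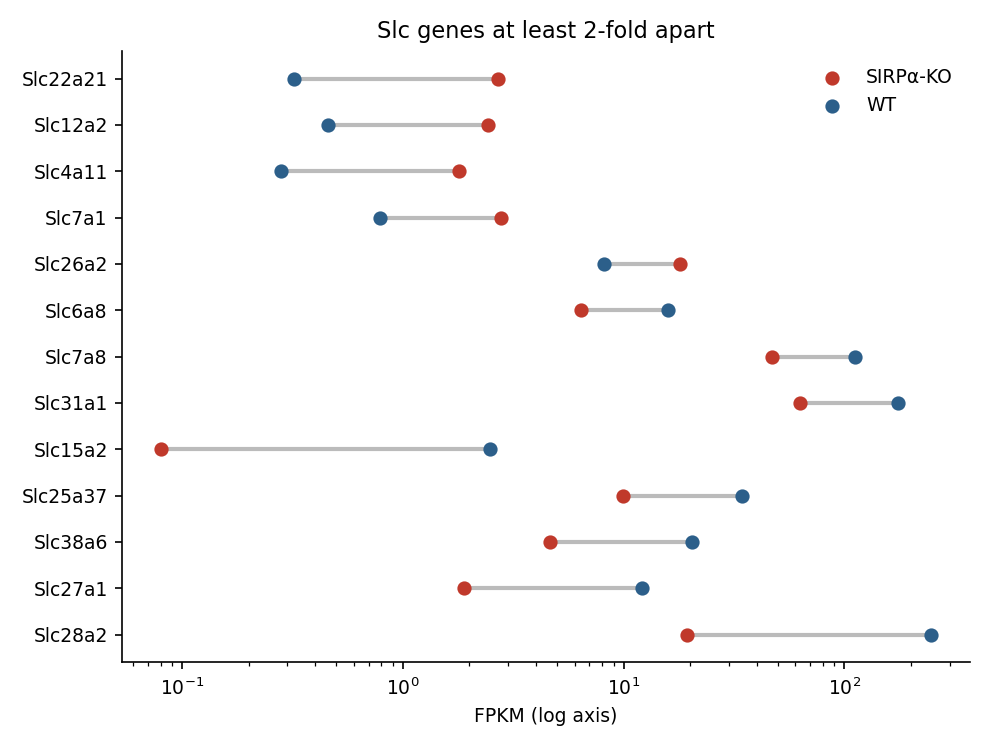
FPKM on a log axis of 13 of the 14 carriers that were 2-fold or more apart, with SIRPα-KO in red and WT in blue, ordered by their log2 difference. Slc28a2, with the lowest difference (-3.61), is at the bottom and Slc22a21, with the highest (1.49), at the top, and 4 of the higher genes were under 3 FPKM in both libraries.

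With the pseudocount the other groups had 0 members past 2-fold, where 7.73% of all genes kept were. Without it the ratio of FPKM was 3.4 for Slc46a3, a vitamin group member (about 43 reads in SIRPα-KO and 13 in WT). It was 2.04 for Slc35d1, of the nucleotide sugar group. Both were named after their values were seen. Among 7 kept carriers of sugars and sugar phosphates the median was -0.01. Slc2a6, a glucose transporter family member of lysosomes, was the second carrier by level in SIRPα-KO, at 299 FPKM against 241 FPKM in WT (log2 0.31). Slc37a3 was at 10.2 FPKM in SIRPα-KO and 5.87 FPKM in WT (log2 0.71). Vitamin, choline and cofactor carriers had a median of 0.05 over 7 members. Slc33a1, which brings acetyl-CoA into the endoplasmic reticulum, was at 54.0 FPKM in SIRPα-KO and 28.8 FPKM in WT, short of 2-fold (0.88), and the choline carrier Slc44a1 at 44.3 in SIRPα-KO and 48.2 in WT. The 19 carriers of nucleotide sugars and their relatives had a median of 0.11 and lay between -0.48 and 0.54. In that group Slc35f6 was at 13.5 FPKM in SIRPα-KO and 18.4 FPKM in WT.

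Monocarboxylate and dicarboxylate carriers had a median of 0.16 over 5 members, with the aromatic amino acid carrier Slc16a10 at 8.7 FPKM in SIRPα-KO and 14.3 FPKM in WT and the lactate and pyruvate carrier Slc16a1 at 7.62 in SIRPα-KO and 5.41 in WT. The phosphate carrier Slc20a1 was at 2.01 FPKM in SIRPα-KO and 3.5 FPKM in WT, and the vesicular amine carrier Slc18b1 at 4.87 in SIRPα-KO and 3.28 in WT. None of these was past 2-fold. Of the carriers left out by name, Slc2a1 and Slc30a4 were past 2-fold, both lower. Slc2a1, the main glucose importer, was at 37.65 FPKM in SIRPα-KO and 89 FPKM in WT, and the zinc carrier Slc30a4 at 4.45 FPKM in SIRPα-KO and 15.1 FPKM in WT.

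Carriers of SLC families whose symbols do not begin with Slc had 1 of 34 kept members higher and 4 lower, with a median of 0.06. Of all genes kept 3.43% were higher and 4.3% lower. The higher one was Sfxn1, a serine carrier of mitochondria, at 9.89 FPKM in SIRPα-KO and 3.46 FPKM in WT. Among the lower ones were Tmem104 (1.98 FPKM in SIRPα-KO, 7.66 in WT), Nipal1 (0.49 in SIRPα-KO, 2.81 in WT) and Pqlc1 (3.32 in SIRPα-KO, 9.61 in WT), and Unc93b1, the most abundant, was level at 258 FPKM in SIRPα-KO and 254 FPKM in WT. Partner proteins of carriers had 0 of 8 higher and 1 lower, with a median of -0.11. Emb, the chaperone of monocarboxylate carriers, was at 136 FPKM in SIRPα-KO and 70.4 FPKM in WT, short of 2-fold (0.94).

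Summed over all 146 carriers, the level was 3176 FPKM in SIRPα-KO and 3498 FPKM in WT. Without Slc28a2 the sums were 3156 FPKM in SIRPα-KO and 3250 FPKM in WT. Both sums are nets of differences in opposite directions. The 10 carriers most abundant by the mean of both libraries, a set that includes Slc28a2, made up 57.2% of the sum in SIRPα-KO and 61.5% in WT. By group, nucleoside carriers summed to 32.3 FPKM in SIRPα-KO and 269 in WT, and peptide carriers to 399.89 in SIRPα-KO and 640.97 in WT. Carriers of protons, sodium, potassium and calcium summed to 168 FPKM in SIRPα-KO and 132 in WT, and sugar carriers to 323 in SIRPα-KO and 261 in WT. The order of the groups therefore differed, with mitochondrial carriers first in SIRPα-KO and peptide carriers first in WT.

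**Figure D4:**
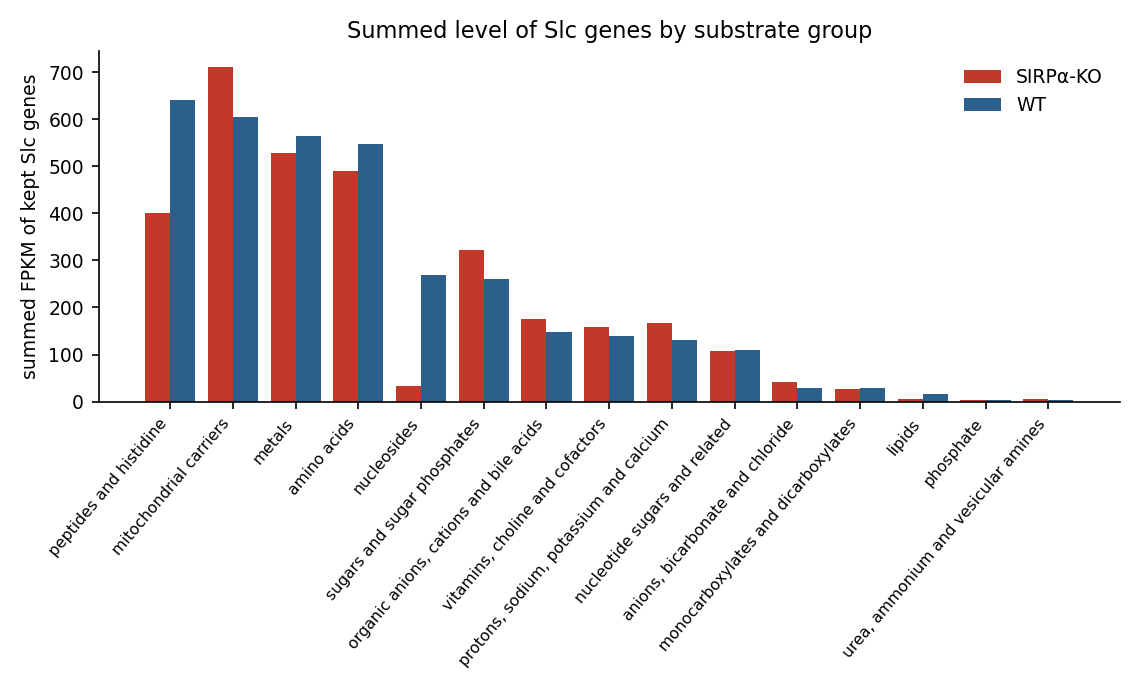
Summed FPKM of the kept carriers in each substrate group, SIRPα-KO (red) left of WT (blue), ordered by the WT sum. The peptide bars stand at 399.89 FPKM in SIRPα-KO and 640.97 FPKM in WT and the nucleoside bars at 32.3 in SIRPα-KO and 269 in WT, and the mitochondrial carriers are the tallest bar of SIRPα-KO.

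Promoter windows of 300 bases (250 before to 50 after the annotated start, RefSeq, GRCm38.p6) were matched for 112 of the 146 carriers, 153 windows in all. They were searched on both strands for TGANTCA (AP-1), GAAA, any 2 bases and GAAA (interferon-stimulated response element), GGAAGT (core of the ETS family, to which the macrophage factor PU.1 belongs), ACGTG (hypoxia response element core), GGGA, any 4 bases and CC (NF-κB) and TGACGTCA (CRE, bound by CREB and ATF factors). Matches of different motifs may overlap. The ETS core was in 26.8% of carrier windows and in 23.8% of all 32851 windows, ACGTG in 30.7% of carrier windows against 19.6% of all, and the NF-κB motif in 24.2% against 20.7%. AP-1 was in 5.88% of carrier windows against 7.81% of all, the interferon element in 0.654% against 3.44%, and CRE in 1.96% against 1.79%. Counted by gene, which can have several windows, 4 of the 6 lower carriers with a window held the ETS core and 3 ACGTG. Another count by gene gave 1 with the NF-κB motif, 1 with CRE and 0 with AP-1 or the interferon element. The ETS core was in 37 of 112 carriers and 7175 of all 27025 genes, and ACGTG in 42 and 5886. Slc7a8, a lower carrier, had 0 matches. Slc7a1, the 1 higher carrier with a window, held AP-1 and the NF-κB motif. The windows of 3 lower carriers that had matches are printed to show how they differ in these letters. All are on the plus strand with matches in capitals. Slc28a2 (chr2:122426185-122426484) held the ETS core at 2 places, Slc31a1 (chr4:62360451-62360750) held the ETS core, ACGTG and the NF-κB motif, and Slc38a6 (chr12:73286598-73286897) held CRE.
Slc28a2: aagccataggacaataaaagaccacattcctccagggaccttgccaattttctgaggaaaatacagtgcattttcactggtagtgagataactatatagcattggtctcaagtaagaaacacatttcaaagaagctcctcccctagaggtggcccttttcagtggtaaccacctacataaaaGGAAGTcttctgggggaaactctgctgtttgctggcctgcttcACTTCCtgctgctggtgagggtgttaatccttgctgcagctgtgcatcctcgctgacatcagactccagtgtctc
Slc31a1: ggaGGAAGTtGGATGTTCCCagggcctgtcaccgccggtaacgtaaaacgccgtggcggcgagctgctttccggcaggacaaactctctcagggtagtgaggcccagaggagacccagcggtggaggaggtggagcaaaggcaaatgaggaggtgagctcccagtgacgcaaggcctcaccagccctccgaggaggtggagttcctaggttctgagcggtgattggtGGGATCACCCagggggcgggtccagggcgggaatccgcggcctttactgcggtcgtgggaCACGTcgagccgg
Slc38a6: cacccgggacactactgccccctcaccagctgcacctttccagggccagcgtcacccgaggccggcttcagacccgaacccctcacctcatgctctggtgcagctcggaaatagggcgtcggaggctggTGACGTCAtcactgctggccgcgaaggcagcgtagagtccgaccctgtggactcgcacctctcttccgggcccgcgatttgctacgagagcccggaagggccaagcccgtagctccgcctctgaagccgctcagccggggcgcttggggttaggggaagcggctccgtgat
The 3 windows shared no motif of the set in common. A match of letters is a description of the sequence and not a site.

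By position, 17 of the kept carriers are on chromosome 2, the chromosome of Sirpa, and 3 of these 17 were past 2-fold. Of all 807 genes kept on chromosome 2, 8.18% were past 2-fold, against 7.73% of all genes kept. In gene order Slc4a11 was 15 kept genes from Sirpa and Slc28a2 was 51, while Slc20a1 at 6, Slc23a2 at 28 and Slc24a5 at 40 were short of 2-fold. Of the 50 kept genes nearest to Sirpa, 25 on each side, 1 was higher and 4 were lower (10%). Of the nearest 100, 5 were higher and 12 lower (17%), and of the nearest 200, 6 were higher and 20 lower (13%). Called and level carriers both lay near Sirpa. Close to Slc28a2, Eif3j1 (log2 -3.28), Spg11 (-1.07), Bambi-ps1 (-1.43), Gatm (-2.38), Spata5l1 (-1.26), AA467197 (-3.31) and the left-out carrier Slc30a4 (-1.56) were lower. In the same stretch Gm14085 (2.61) and Mir147 (3.63) were higher, while B2m (-0.08), Sord (-0.70) and Shf (-0.68) were short of 2-fold. The part of position in the values of Slc28a2 and Slc4a11 was not tested. Carriers on other chromosomes made up 11 of the 14 called.

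**Figure D5:**
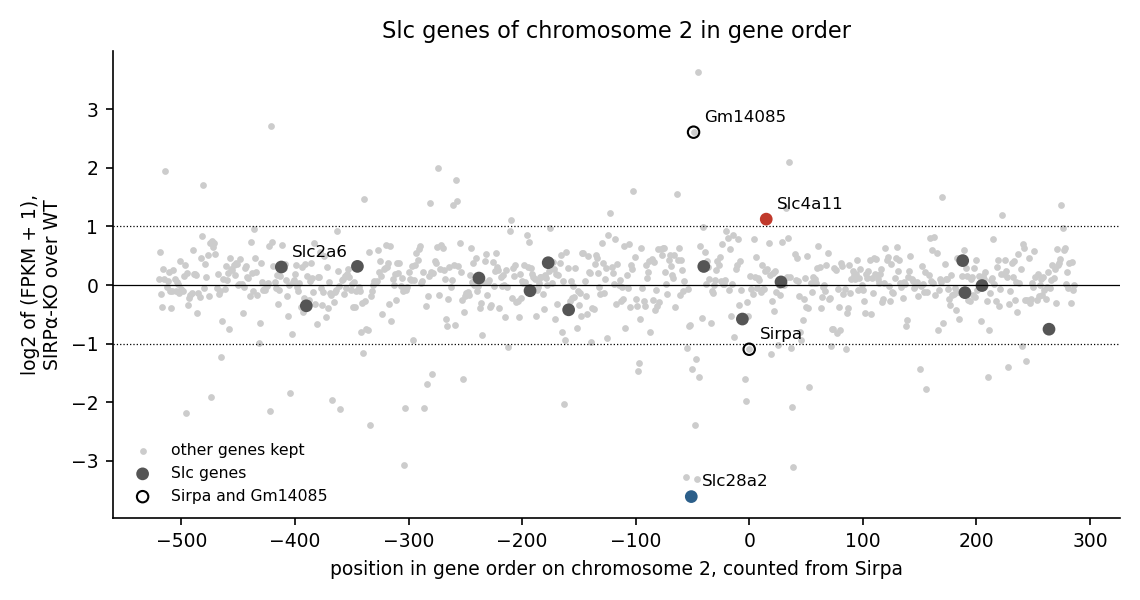
Log2 difference of (FPKM + 1) between SIRPα-KO and WT for the kept genes of chromosome 2 (grey) and 16 of its 17 Slc genes (large points, red higher and blue lower in SIRPα-KO), by position in gene order counted from Sirpa. Slc4a11 and Slc28a2 lie 15 and 51 genes from Sirpa, and the copy Gm14085 lies 2.61 above equality 49 genes from it.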

How the data were processed

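RNA of 2 samples was sequenced, 1 SIRPα-KO and 1 WT pool of 5 mice each. The deposited tables hold 1 value per gene, taken to be FPKM because the step between low values scales with transcript length. With GENCODE mouse release 21 lengths, 73.8% of 592 low SIRPα-KO values and 76.1% of 568 low WT values came to whole reads with a tolerance of 0.15 (34.2% and 30.7% with shuffled lengths), which gave the depths. At these depths 10 reads on 2 kb equal 0.457 FPKM in SIRPα-KO and 0.455 in WT. Per the submitters' processing notes, mm9, R 3.3.3 and DESeq2 were used in an unstated role. Neither aligner, counter nor strandedness is given in the sources used here.

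Ratios used log2(FPKM + 1), which understates differences of low genes. Estimated reads were FPKM times length times depth, and their exact 95% binomial intervals cover counting error only, since reads are not independent molecules. Values were computed with Python 3.11.15, pandas 2.3.3, scipy 1.17.1 and Biopython 1.88. The calls were also run on simulated reads with counting error only, 1 length for all genes and known folds in genes of higher level. That run covers neither low genes nor differences between pools of mice. Chromosomes came from a RefSeq table of GRCm38 (16208 of 16263 genes matched), later than mm9. Alternatives were another pseudocount, filter, fold limit and scaling, and the removal of carriers with close copies or of Slco genes.

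The carriers, groups and lists were chosen with earlier results of these data known. Named genes were Slc28a2, Slc3a2 and Slc15a3, called carriers at 2 FPKM or more, and the most abundant of each group. Their relatives and those just short of 2-fold were named after the values were seen. A called carrier and a partner gene are counted but not reported here by name.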

Additional observations from a re-analysis of the deposited data

How the results depend on the processing

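The counts of carriers depended on the limit. With a pseudocount of 0.1, 12 were higher and 13 lower (5.84% and 6.7% of all genes kept). A fold limit of 1.5 gave 18 and 19 (10.9% and 10.2% of all genes), and one of 3 gave 0 and 5 (1.29% and 1.39%). With a minimum of 5 FPKM 2 of 79 carriers were higher and 7 lower (3.75% and 4.91% of all genes). With either rescaling 5 were higher and 8 lower. Without the 7 carriers that share over 10% of their words with another gene, 5 of 139 were higher and 7 lower. That alternative was added after the data were seen, and it takes out Slc28a2 and Slc22a21. The rescalings shifted the median of all genes by -0.07. The median of the carriers lay between -0.01 and 0.11 under every alternative run. Among 34 named carriers, Slc26a2 was just short of 2-fold with both rescalings. None called at 2-fold changed direction, but these alternatives could not have changed it. A pseudocount or fold limit leaves the sign of a difference as it is. The rescalings multiplied SIRPα-KO values by 0.947 or 0.946, too little to reverse a 2-fold difference. No paired analysis was possible because each group has 1 library. For the same reason no library could be left out, and low carriers rest on few reads.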

Other observations

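The carriers past 2-fold were also counted by level. Among 23 carriers with a mean over 20 FPKM 1 was higher and 4 were lower (21.7%, against 8.39% of all genes at that level), and among 35 with a mean of 2 to 5 FPKM 0 were past 2-fold (7.21% of all genes). Among 55 with a mean of 5 to 20 FPKM 1 was higher and 3 were lower (7.27%, against 7.29% of all genes). Of 33 with a mean under 2 FPKM, 4 were higher and 1 lower (15.2%, against 8.16% of all genes). These classes were chosen after the values were seen, and no test was made.

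Several carriers overlap or resemble another gene in sequence. Slc24a5 shares 43.5% of its words with Myef2, Slc16a6 22.2% with Amz2 and Slc10a3 10.3% with Ubl4, and their log2 differences were 0.32, 0.61 and -0.01. Slc22a5 and Slc22a21 share sequence and both had greater values in SIRPα-KO.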
